A study of Homo sapiens with 6 samples.

Results

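The transcripts examined here are those of 40 transcription factors that act in mesoderm, endoderm and extraembryonic lineages, taken by gene symbol by a rule that names genes and uses no measured value, though earlier results of these data were known when it was set. Each of the 40 symbols matched 1 of the 19977 Ensembl identifiers counted. The cells were NCRM-1, a wild type human induced pluripotent stem cell line, seeded as single cells with a ROCK inhibitor and grown as aggregates for 4 days in vertical wheel bioreactors, with 50% of the medium replaced on day 2. Bulk RNA libraries came from 3 samples in E8 medium with polyethylene glycol at 10 mg/ml plus heparin at 0.1 µg/ml, called PEG and HS here, and from 3 samples in plain E8 medium, called Control. The treatment text of the labels lists the additives for all 6 libraries, so the groups follow the separate treatment field of each library. The labels carry 1 bioreactor letter per medium, so the vessel cannot be told apart from the medium. Libraries of 1 medium may thus be technical samples of 1 vessel, and SDs and p-values measure only the spread between them. All libraries are of 1 cell line.

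During gastrulation, epiblast cells that receive NODAL, WNT and BMP signals pass through the primitive streak and become mesoderm or definitive endoderm. T-box factors such as TBXT, EOMES and TBX6 mark that passage, SNAI and TWIST factors repress the epithelial state, and GATA, SOX17, HNF4A and HHEX factors act in endoderm, heart and blood. CDX2, GATA2, GATA3 and HAND1 are also known from trophoblast or amnion. In pluripotent cells most of these genes are held silent, and their transcripts serve as a readout of spontaneous differentiation.

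The libraries held 26991279 to 36185138 counts. The 12 pluripotent stem cell markers of a chosen list all had counts, with 6 calls on the higher and 4 on the lower side, and a summed level of 10541 to 10739 CPM (the count scaled to a common library size with edgeR's TMM factors) in PEG and HS and 10625 to 10805 CPM in Control. Without DNMT3B and POU5F1, the most abundant of them, the sum was 6389 to 6524 CPM against 6829 to 6940 CPM, a split chosen after the values were seen. Of 14 neuroectoderm markers, 11 were called lower in PEG and HS, and their sum was 611 to 652 CPM in PEG and HS against 845 to 876 CPM in Control. Over the 16505 genes tested, 25.3% were called at the same adjusted p under 0.05, 12.2% higher and 13.1% lower. The part of the neuroectoderm markers in the differences below was not tested. In bulk libraries, fewer cells of a type and less RNA per cell cannot be told apart.

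Most of the 40 transcription factors were nearly silent in both media. MSGN1, a factor of presomitic mesoderm, and TBX4, a hindlimb T-box factor, had no count in any library, and a count of 0 allows up to 0.0831 to 0.111 CPM in a library (3 counts, counting error only). Another 10 had 1 to 9 counts over the 6 libraries together. These are SOX17, GATA4, HNF4A and PDX1 of endoderm and gut, CDX1 and CDX2 of the posterior and extraembryonic axis, HAND2 and TBX2 of heart, GATA1 of red blood cells and the intestinal factor ISX. The remaining 28 had at least 10 counts in total (70%, against 82.6% of all identifiers). A level of at least 1 CPM in every library was reached by 9 of the 40 (22.5%), namely MIXL1, TBX6, TBX1, GATA5, SNAI1, TWIST2, TCF15, CDX4 and HHEX, whereas 65.7% of all 19977 identifiers reached it. A level of 10 CPM in every library was reached by 0 of the 40 and by 48.6% of all identifiers.

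**Figure D1:**
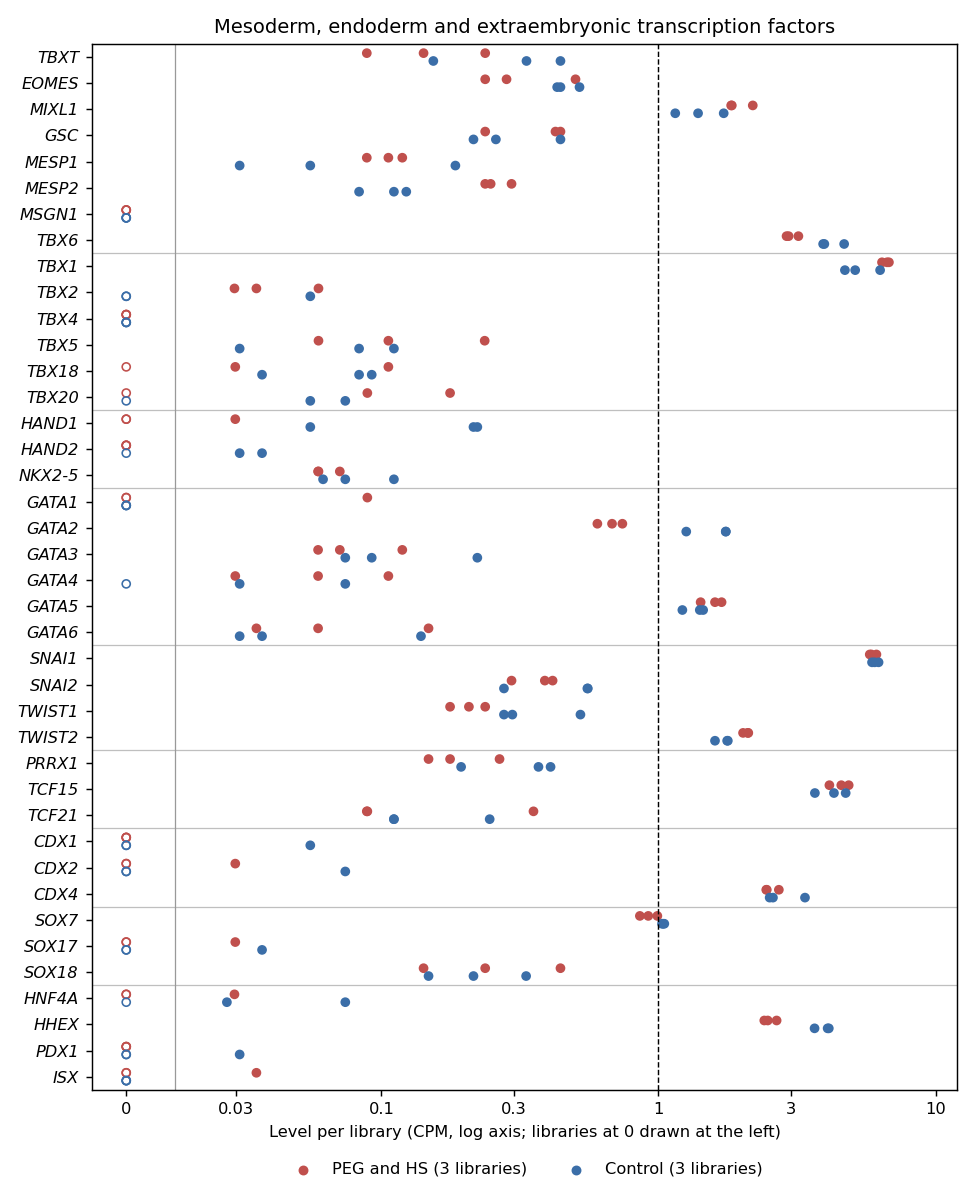
Level of each of the 40 transcription factors in each library, in CPM on a log axis, with PEG and HS in red and Control in blue, open circles for libraries at 0 and a dashed line at 1 CPM. Grey lines part the role groups, and 9 genes lie over 1 CPM in all 6 libraries while 12 have fewer than 10 counts in total.

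The 40 genes together took 1010 to 1209 counts per library in PEG and HS against 961 to 1374 in Control, or 34.9 to 35.9 and 35.6 to 38.5 CPM. The 8 best counted genes held 80.9% of these counts. Per length (CPM per kb of exon, mean of the 6 libraries), the median of the 40 lay at the 22.2 percentile of 19916 genes. On this scale TCF15 (4.35 CPM per kb) and SNAI1 (3.51 CPM per kb) were the most abundant, followed by CDX4 (1.64), TBX1 (1.53), HHEX (1.28) and TBX6 (1.16 CPM per kb). By the means of 3 libraries, the order among these turns between the media, and differences between genes were not tested. CDX4 and TBX1 had 1.55 ± 0.0943 and 1.69 ± 0.0508 CPM per kb in PEG and HS and 1.72 ± 0.292 and 1.37 ± 0.211 CPM per kb in Control (SD, n = 3), while HHEX had 0.999 ± 0.0536 and 1.57 ± 0.102 CPM per kb and so lay under TBX1 in PEG and HS and above it in Control. At the other end, TBXT had 0.0895 and SOX17 0.00474 CPM per kb.

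**Figure D2:**
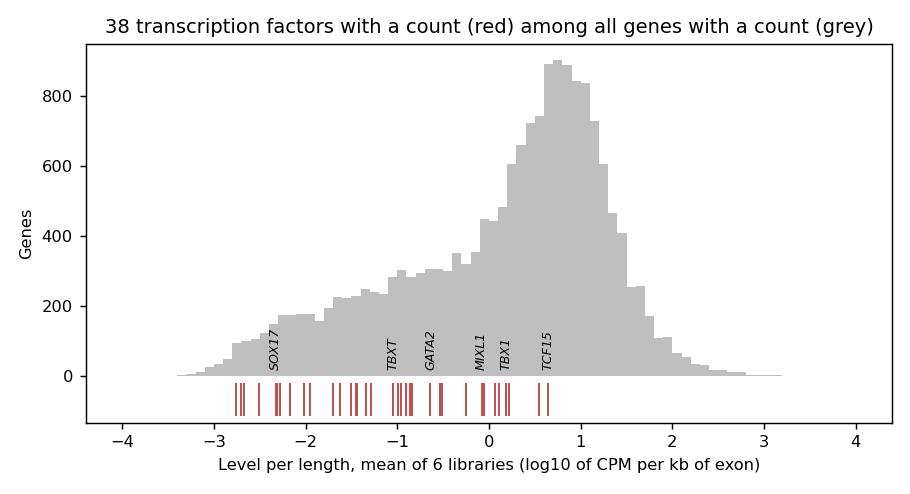
Histogram of the level per length of all genes with a count (grey, log10 of CPM per kb of exon, mean of 6 libraries), with red lines for the 38 transcription factors that have one. The red lines lie mostly in the lower tail of the grey histogram and end at TCF15, with 4.35 CPM per kb, at the 62.7 percentile of all genes.

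Of the 28 transcription factors that could be tested, 4 were called lower in PEG and HS and 0 higher when the quasi-likelihood test of edgeR was read at a Benjamini-Hochberg adjusted p of 0.05. The 4 were GATA2, HHEX, TBX6 and HAND1. They make up 14.3% of the 28, whereas 25.3% of the 16505 genes tested were called, 13.1% lower and 12.2% higher. Among the 5454 tested genes with a mean level no higher than that of TBX1, the highest of the 40 over all 6 libraries, 11.7% were called and 8.45% were called lower, so the share of calls among the 28 lies near this background. At an unadjusted p under 0.05, 7 of the 28 passed, of which 3 were higher. DESeq2 and limma-voom also called 0 higher, though DESeq2 gave no adjusted p for 15 of the 28. A fit with the replicate number as a block called 1 higher, TBX1. The median log2 fold change (PEG and HS over Control) of the 28 was -0.097, against 0.0031 over all genes tested, with 13 above and 15 below 0. The standard error (SE) of a log2 fold change had a median of 0.13 among the 9 genes over 1 CPM and 0.55 among the other tested ones, against 0.061 over all genes tested. For a single gene, an exact permutation test of 3 against 3 libraries can give no p below 0.1.

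**Figure D3:**
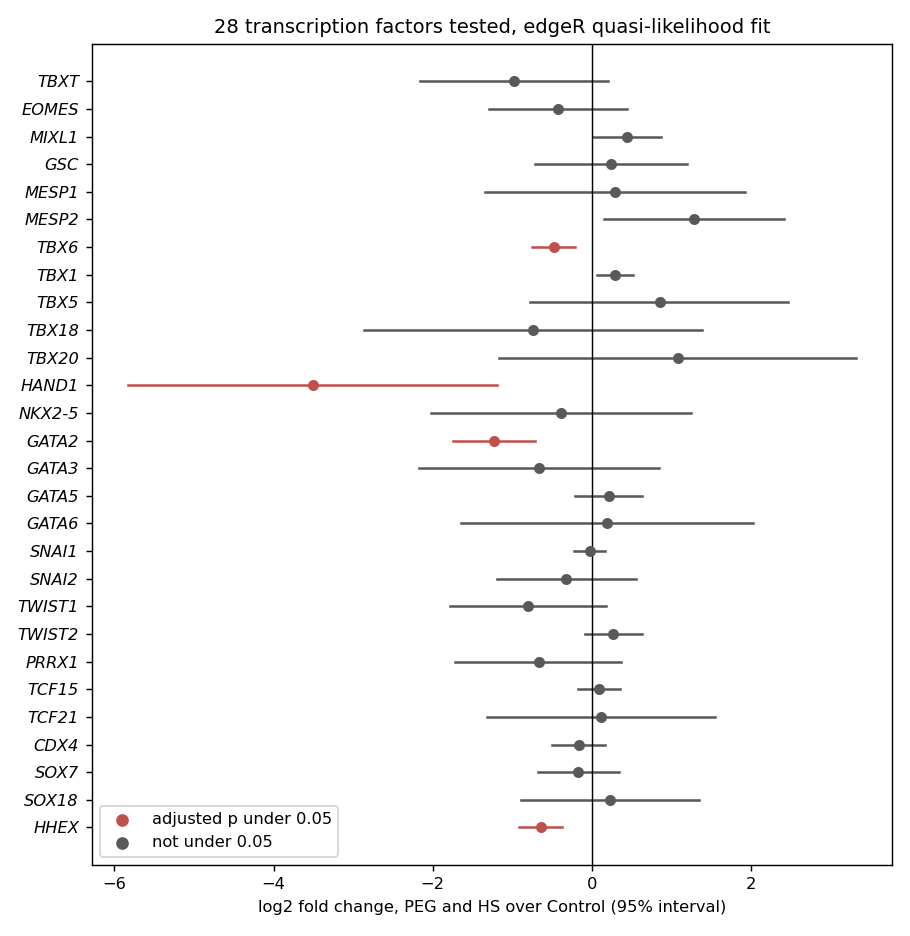
Log2 fold change of PEG and HS over Control with its 95% interval for the 28 transcription factors tested, with the 4 at an adjusted p under 0.05 in red. The intervals are narrow for SNAI1 (-0.22 to 0.16) and wide for genes with few counts such as TBX20 (-1.17 to 3.32).

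GATA2 (ENSG00000179348, chromosome 3, 128479427 to 128493201 of GRCh38), a factor of blood stem cells and trophoblast, had 25, 17 and 23 counts in PEG and HS against 34, 57 and 63 counts in Control. In CPM these are 0.741, 0.602 and 0.68 against 1.26, 1.75 and 1.75. Every PEG and HS library lay under every Control library, and the difference was 2.35-fold (log2 fold change -1.23, SE 0.24, 95% interval -1.75 to -0.72, adjusted p = 0.00147). The antisense gene GATA2-AS1 overlaps GATA2, and as the strand setting of the counting is not given in the sources used here, its reads may be among these counts.

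HHEX (ENSG00000152804, chromosome 10, 92689955 to 92695647), a homeobox factor of anterior endoderm, liver and blood vessel precursors, had 2.67, 2.41 and 2.48 CPM in PEG and HS against 4.08, 4.12 and 3.66 CPM in Control. The media did not overlap, and HHEX was 1.56-fold lower with the additives (SE 0.13 around a log2 fold change of -0.64, 95% interval -0.92 to -0.37, adjusted p = 0.00164). It shares no 31-base word of its transcripts with another gene.

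TBX6 (ENSG00000149922, chromosome 16, 30085793 to 30091924), which commits cells to paraxial mesoderm, had 3.2, 2.9 and 2.95 CPM in PEG and HS against 3.93, 3.97 and 4.68 CPM in Control. Again each PEG and HS library was lower than each Control library, by 1.39-fold between the means of the fit (log2 fold change -0.48, SE 0.13, adjusted p = 0.0114). Control replicate 3 was the highest library, and without it the adjusted p of TBX6 was 0.062.

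HAND1 (ENSG00000113196, chromosome 5, 154474972 to 154478227), a factor of lateral mesoderm, heart and trophoblast, had 1, 0 and 0 counts in PEG and HS against 6, 7 and 2 counts in Control. The ratio of summed counts, corrected for library size, was 0.0665 (exact 95% interval 0.00158 to 0.432, counting error only). Its adjusted p was 0.0276, and this rose to 0.0799 without Control replicate 1, 0.0748 without PEG and HS replicate 2 and 0.0861 without PEG and HS replicate 3. Without Control replicate 2 it fell under the minimum of 10 counts. DESeq2 gave no adjusted p for HAND1, and the call rests on 16 counts in all. Of these, 15 were in Control, so HAND1 passed the minimum count only through Control, which favours a lower call.

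**Figure D4:**
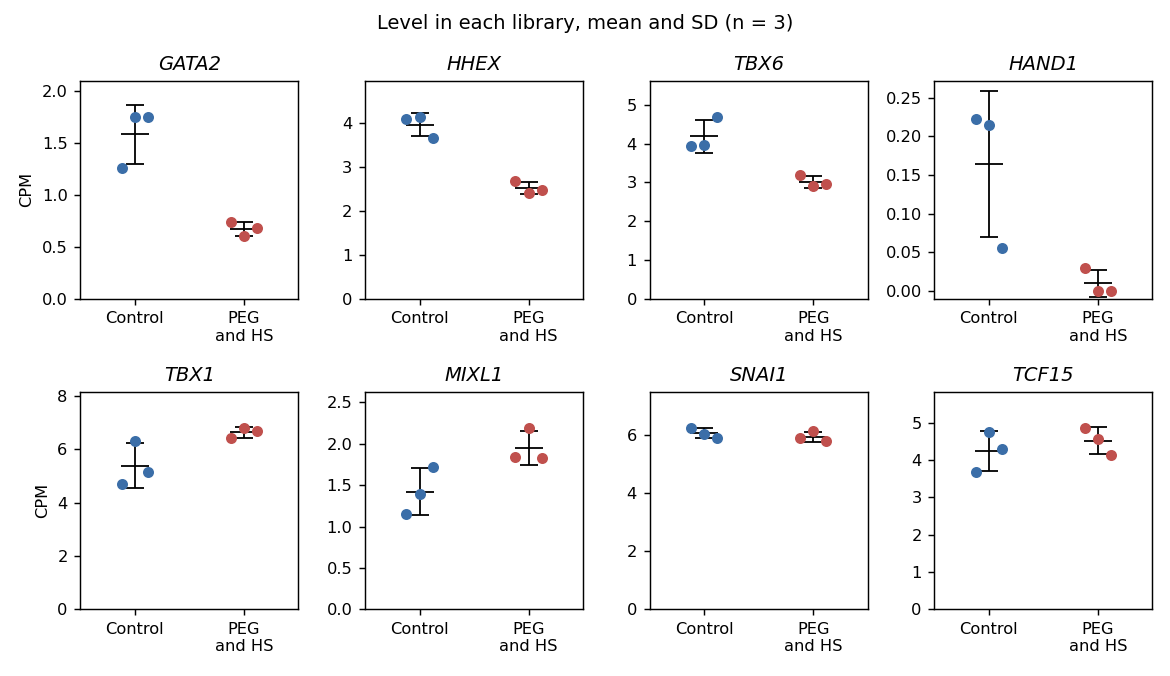
Level in CPM of 8 transcription factors in each of the 6 libraries (points), with the mean and SD of each medium (n = 3). GATA2, HHEX, TBX6 and HAND1 lie lower in every PEG and HS library, TBX1 and MIXL1 lie higher in every PEG and HS library without passing the test, and SNAI1 and TCF15 overlap.

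The upstream sequences of the 4 genes that were lower in the same libraries are shown for comparison, as 250 bases before the RefSeq gene start (GRCh38.p14), read 5′ to 3′ on the strand of the gene. Capitals mark a SMAD box (CAGAC or GTCTG) or the GC-rich SMAD motif GGCGCC, the letters bound by the effectors of BMP, NODAL and activin signals. The windows are chr3:128493202-128493451 (minus strand) for GATA2, chr5:154478228-154478477 (minus strand) for HAND1, chr10:92689705-92689954 (plus strand) for HHEX and chr16:30091925-30092174 (minus strand) for TBX6.
GATA2: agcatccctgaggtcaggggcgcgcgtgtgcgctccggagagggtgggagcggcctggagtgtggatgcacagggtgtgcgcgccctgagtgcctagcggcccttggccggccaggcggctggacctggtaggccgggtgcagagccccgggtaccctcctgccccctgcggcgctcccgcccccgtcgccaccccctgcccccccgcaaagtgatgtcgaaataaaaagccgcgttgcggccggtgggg
HAND1: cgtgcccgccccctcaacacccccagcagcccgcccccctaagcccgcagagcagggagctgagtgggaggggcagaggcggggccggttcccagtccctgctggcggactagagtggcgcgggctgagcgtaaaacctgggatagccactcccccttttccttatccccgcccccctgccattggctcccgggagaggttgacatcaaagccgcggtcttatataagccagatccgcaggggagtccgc
HHEX: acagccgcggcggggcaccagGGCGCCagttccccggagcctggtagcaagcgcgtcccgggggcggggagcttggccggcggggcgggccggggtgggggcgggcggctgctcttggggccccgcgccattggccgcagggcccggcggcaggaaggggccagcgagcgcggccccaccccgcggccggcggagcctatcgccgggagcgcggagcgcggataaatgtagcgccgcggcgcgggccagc
TBX6: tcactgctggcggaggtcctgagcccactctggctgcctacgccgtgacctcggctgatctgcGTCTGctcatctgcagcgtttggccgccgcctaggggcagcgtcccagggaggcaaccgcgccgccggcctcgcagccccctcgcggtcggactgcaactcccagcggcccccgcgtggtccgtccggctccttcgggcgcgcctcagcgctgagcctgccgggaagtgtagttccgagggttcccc

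TBX6 held 1 SMAD box and HHEX 1 GC-rich motif, while GATA2 and HAND1 held neither. A window without a match says only that these letters are not in it. Promoter windows were matched for 26 of the 40 genes, of which 12 (46.2%) held a SMAD box and 6 (23.1%) the GC-rich motif, against 37.8% and 16.1% of 27305 promoters of the same length. The GC box GGGCGG or CCGCCC was in 14 of the 26 (53.8%, against 42.3% of all), with 4 matches in HHEX, 3 in HAND1, 1 in GATA2 and 0 in TBX6. The CCAAT box (CCAAT or ATTGG) was in 11 of the 26 (42.3%, against 33% of all), among them HAND1 and HHEX, and the TATA box (TATAAA or TTTATA) in 3 (11.5%, against 11.1%), which are EOMES, GSC and TBXT. The 26 windows had a median GC content of 61.2% and 16 CpG dinucleotides, against 58% and 11 over all promoters. Among the 4 genes, GC content ran from 67.2% in HAND1 to 81.2% in HHEX. These matches are letters in a window and were not tested as binding sites.

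Of the 8 primitive streak and early mesoderm factors, 7 were tested and TBX6 alone was called. TBXT (brachyury), the defining streak factor, had 8, 4 and 3 counts in PEG and HS against 9, 5 and 16 in Control, which overlap (log2 fold change -0.98, 95% interval -2.16 to 0.20, adjusted p = 0.227). EOMES, which acts beside TBXT in streak and definitive endoderm, had 8, 8 and 17 counts against 14, 14 and 16, with an interval of -1.29 to 0.44. GSC, the organizer homeobox factor, had 8, 12 and 15 counts against 7, 7 and 16.

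MIXL1, a homeobox factor of mesendoderm and the best counted streak gene after TBX6, had 1.84, 2.19 and 1.83 CPM in PEG and HS against 1.15, 1.39 and 1.72 CPM in Control. The media did not overlap, yet it did not pass the test (log2 fold change 0.44, 95% interval 0.018 to 0.87, adjusted p = 0.122). MESP2, which patterns somites, had 8, 7 and 10 counts in PEG and HS against 3, 4 and 3 in Control, also without overlap (log2 fold change 1.28, 95% interval 0.15 to 2.42, adjusted p = 0.094). MESP1, the cardiac mesoderm factor next to it on chromosome 15 (89749875 to 89751249, with MESP2 at 89760591 to 89778754), had 4, 3 and 3 counts against 5, 1 and 2. The point estimates of this role group thus lay on either side of 0.

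TBX1 (ENSG00000184058, chromosome 22, 19756703 to 19783593), a T-box factor of pharyngeal and cardiac mesoderm, had the highest mean CPM of the 40 over all 6 libraries, just above SNAI1 (6.00 and 5.99 CPM), whereas in Control SNAI1 was higher (6.05 against 5.38 CPM). It had 6.41, 6.79 and 6.68 CPM in PEG and HS against 4.71, 6.31 and 5.13 CPM in Control. The libraries did not overlap, but its adjusted p of 0.0582 missed the threshold (log2 fold change 0.29, 95% interval 0.065 to 0.52). Without Control replicate 2, its highest control library, the adjusted p of TBX1 was 0.0107 and the log2 fold change 0.42. GNB1L overlaps TBX1 on the other strand and had 1510 counts over the 6 libraries, so reads counted without strand could not be told apart. The other T-box factors of later mesoderm were scarce, with 20 counts in total for the heart and forelimb factor TBX5, 13 for TBX20, 11 for TBX18, 6 for TBX2 and 0 for TBX4. TBX20 shares 22.5% of its transcript words with other genes and is uncertain for that reason as well.

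Among the 6 GATA factors, GATA2 was called lower. GATA5, of endoderm and endocardium, had 1.69, 1.42 and 1.6 CPM in PEG and HS against 1.41, 1.45 and 1.22 CPM in Control, with overlap (log2 fold change 0.21, 95% interval -0.21 to 0.63, adjusted p = 0.478). GATA3, a trophoblast and T cell factor, had 4, 2 and 2 counts against 2, 3 and 8, and GATA6, which specifies primitive endoderm and heart, had 5, 1 and 2 against 1, 1 and 5. GATA4 had 9 counts in total. GATA1 had 3 counts, all in PEG and HS replicate 1.

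The SNAI and TWIST factors, which repress epithelial genes when cells leave an epithelium, had a summed level of 8.39 to 8.71 CPM in PEG and HS against 8.23 to 8.86 CPM in Control. None of the 4 was called by edgeR or limma-voom, nor by DESeq2 among the 3 other than TWIST1, for which it gave no adjusted p, and 0 of the 4 had an unadjusted p under 0.05. SNAI1 (ENSG00000124216, chromosome 20, 49982980 to 49988886) had 5.87, 6.12 and 5.79 CPM in PEG and HS against 6.23, 6.03 and 5.9 CPM in Control, and its interval of -0.22 to 0.16 leaves room for a change of only a small size (log2 fold change -0.03, adjusted p = 0.846). TWIST2 had 2.11, 2.02 and 2.1 CPM against 1.78, 1.6 and 1.77, without overlap (log2 fold change 0.27, 95% interval -0.086 to 0.63, adjusted p = 0.27). TWIST1 had 8, 5 and 7 counts against 8, 17 and 10, lower in every PEG and HS library by CPM (adjusted p = 0.231). SNAI2 had 14, 11 and 10 counts against 15, 18 and 10.

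TCF15, a basic helix-loop-helix factor of somites that is also known from epiblast cells, was the most abundant of the 40 per length. It had 4.86, 4.57 and 4.14 CPM in PEG and HS against 3.67, 4.74 and 4.3 CPM in Control, with overlap (log2 fold change 0.088, 95% interval -0.17 to 0.35, adjusted p = 0.658). CDX4, a caudal factor of posterior mesoderm and blood, had 2.46, 2.72 and 2.45 CPM against 2.52, 2.59 and 3.38 (log2 fold change -0.16, 95% interval -0.50 to 0.17, adjusted p = 0.495). CDX4 stood apart from its relatives, since CDX1 had 2 counts and CDX2 had 3 in all. CDX2 lies beside PDX1 on chromosome 13 (27960918 to 27969315 and 27920000 to 27926313), and PDX1 had 1 count. The mesenchyme factor PRRX1 had 49 counts in total and TCF21 had 31, both with overlap between media.

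Of the SOXF factors, which act in endoderm and vessels, SOX7 had 0.919, 0.991 and 0.857 CPM in PEG and HS against 1.04, 1.05 and 1.03 CPM in Control. The libraries did not overlap, but the counts of 31, 28 and 29 against 28, 34 and 37 gave an interval of -0.68 to 0.34 (adjusted p = 0.662). SOX7 shares 42.7% of its transcript words with other genes, most with PINX1, so its counts are uncertain. SOX18 had 8, 4 and 15 counts against 4, 7 and 12, and SOX17, the defining factor of definitive endoderm, had 1 count in each medium. The liver and gut factor HNF4A had 4 counts in total and ISX had 1. NKX2-5, an early heart factor, had 2, 2 and 2 counts against 2, 2 and 4. HAND2 had 0 counts in PEG and HS against 2 in Control, which are too few for a fold.

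In all, the media did not overlap in 10 of the 28 genes tested (35.7%), 4 higher and 6 lower in PEG and HS. Over all genes tested 39.3% did not overlap, 19.5% higher and 19.8% lower, and the share was 25.9% among those with a mean level up to that of TBX1. The 10 are MIXL1, MESP2, TBX1 and TWIST2 on the higher side and TBX6, HAND1, GATA2, TWIST1, SOX7 and HHEX on the lower side. For 10 of the 28, the 95% interval held neither a doubling nor a halving.

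Other genes of the same lineages were taken from lists that hold none of the 40. The lists share some genes, among them NODAL, LEFTY1 and WNT8A, whose calls are counted in each list that holds them. Of 25 tested streak and mesoderm genes, 2 were called higher and 8 lower, beside 12.2% higher and 13.1% lower over all genes tested. The somite factor MEOX1 had 0 counts in PEG and HS against 4, 6 and 1 in Control, and the streak factor EVX1 had 0, 1 and 0 against 3, 5 and 4, while NODAL (log2 fold change 0.38) and the receptor gene KDR (0.19) were higher. MEOX1 and EVX1 passed the minimum count only through Control, which favours a lower call. Of 24 endoderm genes, 3 were called higher and 3 lower, a share near the 25.3% called over all genes, with LEFTY1 (0.83) and ONECUT1 (0.81) on the higher side and PRDM1 (-1.47) on the lower side. Of 22 tested trophectoderm and amnion genes, 3 were called higher and 7 lower (all genes 12.2% and 13.1%). The share over all genes covers every level, and no list was matched to it by level. Among tested genes with a mean level up to that of TBX1, 8.45% were called lower. TFAP2A, a factor of amnion, trophoblast and neural crest, had 30, 16 and 12 counts in PEG and HS against 161, 203 and 209 in Control (adjusted p = 9.84e-09, log2 fold change -3.30), and DLX5 had 2, 1 and 0 against 5, 18 and 12, while KRT18 (0.39) and KRT8 (0.24) were higher. DLX5, too, passed the minimum count only through Control. The hormone gene CGA had no count, and the summed level of this list was 983 to 1055 CPM in PEG and HS against 886 to 907 CPM in Control. KRT18 and KRT8 hold most of that sum, and without them it was 141 to 158 CPM against 200 to 214 CPM, the other way round. The endoderm list also turned, with 940 to 947 CPM against 997 to 1033 CPM in Control. Without CLDN6 and EPCAM it summed to 107 to 110 CPM against 97.1 to 103 CPM. Whether the trophectoderm and amnion genes have a part in the lower GATA2 and HAND1 was not tested.

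Genes that mark differentiated mesoderm and endoderm were called lower in 7 of 18 tested and higher in 1, and of 36 genes for the upstream signals 15 were called lower and 6 higher. Over all genes tested 13.1% were called lower and 12.2% higher. TNNT2 of heart muscle (log2 fold change -1.63) was lower, as was the collagen gene COL1A1 (60.1 ± 3.02 CPM against 120 ± 5.23 CPM in Control, SD, n = 3). THY1, which is also a surface marker of pluripotent cells, was higher (log2 fold change 0.63). The list of differentiated products summed to 591 to 628 CPM in PEG and HS against 531 to 571 CPM in Control. Without THY1 and COL1A2 it turned to 96.7 to 108 CPM against 175 to 201 CPM. MYOD1 of skeletal muscle and HBG1 of red blood cells had no count. Among the signals, BMP4, the inducer of mesoderm and amnion, had 1.57 ± 0.0742 CPM in PEG and HS against 7.97 ± 0.943 CPM in Control (SD, n = 3, log2 fold change -2.34). The study, from these same data, had reported BMP4 as lower. It described the levels of LEFTY1, NODAL and KRT8 as similar between the media, whereas these genes were called higher here. The WNT ligand gene WNT8A had 1, 1 and 1 counts against 7, 6 and 4 (adjusted p = 0.0335), and it passed the minimum count only through Control. LEFTY1 and SMAD7 (0.73), feedback inhibitors of NODAL and BMP signals, were higher. The median log2 fold change was -0.35 in the streak and mesoderm list, -0.33 in the endoderm list, -0.74 in the trophectoderm and amnion list, -0.36 among the differentiated products and -0.13 among the signals, against 0.0031 over all genes tested. No list was matched by level to the genes behind that last median. Some list genes, such as MEOX1, EVX1 and WNT8A, were tested only because of their Control counts, which favours lower values.

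**Figure D5:**
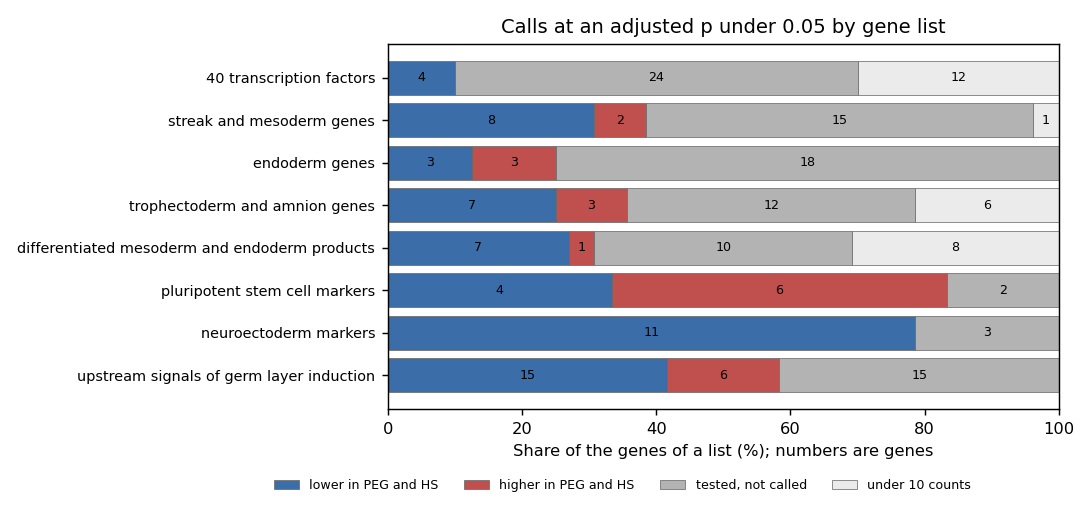
Share of each gene list that was called lower (blue) or higher (red) in PEG and HS at an adjusted p under 0.05, tested without a call (grey) or under 10 counts (light grey), with the number of genes written in each bar. The 40 transcription factors show 4 lower and 0 higher calls. Of the 14 neuroectoderm markers 11 were lower, in a list that holds genes the study had already reported as lower.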

How the data were processed

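Raw counts per gene, deposited by the authors as 1 table per library, were used without change. Per the study's methods, libraries were stranded and made from polyadenylated RNA, and reads went through the nf-core/rnaseq pipeline with Trim Galore 0.6.7 and STAR 2.6.1 on GRCh38. How reads were assigned to genes, by strand or when mapping to several genes, is not given in the sources used here. The authors' filter under 10 reads was not applied in these tables.

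Of 19977 identifiers, 19916 matched GENCODE 44 and 61 did not. The 40 genes and the lists were chosen with earlier results of these data known. Genes with at least 10 counts in total (16505) were compared with edgeR 4.0.16 in R 4.3.3 (TMM, quasi-likelihood test, no covariate, Benjamini-Hochberg over all genes tested, called at an adjusted p under 0.05). Library totals of 26991279 to 36185138 counts set the precision, and intervals are wide for most of the 40. SE was taken from the fold change and its F statistic, as |log2 fold change| divided by the root of F. Called genes and genes over 1 CPM in every library of a medium are given by library, all others by counts, and from each other list up to 2 called genes in each direction, of which 1 is not reported here. Shared sequence is the percent of 31-base transcript words found in another gene. Scripts were tested on simulated data. Alternatives were DESeq2 1.42.0, limma-voom (limma 3.58.1), 3 normalizations, 3 filters, other thresholds, a replicate block and each library left out. Sums of the lists without their 2 most abundant genes were added after seeing the data. Replicates of 1 medium may be technical.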

Additional observations from a re-analysis of the deposited data

How the results depend on the processing

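The number of the 40 transcription factors called lower, 4, was 3 or 4 under DESeq2, limma-voom, the other normalizations and the other filters, 0 when tested against a 1.5-fold change (all genes 264 in place of 4173, list genes 17 in place of 72) and 2 at an adjusted p under 0.01 (all genes 2601). The number called higher, 0, became 1 (TBX1, adjusted p = 0.0355) with the replicate number as a block, and with each library left out in turn it ranged from 0 to 1. The block called 4444 genes. Replicate numbers did not pair the libraries (r of deviations between same-numbered libraries 0.0229, 0.0394 and 0.0459), so the block stays a check. Genes tested fell from 28 to 14 with a minimum of 10 counts in 3 libraries and with filterByExpr, which test fewer genes by construction. A level of 0.5 CPM or 10 counts in every library gave 11 and 12 genes in place of 9.

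Over the refits, 400 fold changes of single transcription factors came with an adjusted p, of which 380 kept both sign and call, 8 lost significance, 2 gained it and 10 changed sign. HAND1 had no adjusted p in DESeq2, under both stricter filters and without Control replicate 2, which are not among the 8, and the calls of TBX6 and HAND1 are also lost at an adjusted p under 0.01. Sign changes were all in genes that were not called. GATA6 went to -0.067, -0.17 and -0.55 without Control replicates 1 and 2 and PEG and HS replicate 1. TCF21 went to -0.083 in limma-voom and to -0.055, -0.11 and -0.79 without Control replicates 1 and 3 and PEG and HS replicate 2. MESP1 went to -0.11 without Control replicate 2, TCF15 to -0.00074 without Control replicate 1 and SOX18 to -0.30 without PEG and HS replicate 3. With 1 library left out, log2 fold changes ranged from -0.11 to 1.19 (MESP1), -0.55 to 1.21 (GATA6), -0.00074 to 0.17 (TCF15), -0.79 to 0.59 (TCF21) and -0.30 to 0.59 (SOX18). The cause was not tested. DESeq2 gave no adjusted p for 15 of the 28. With 26991279 to 36185138 counts per library, differences in the genes under 10 counts were not detectable at this depth.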
